A study of Mus musculus with 9 samples.

Results

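This account concerns 10 genes used as markers of macrophages and related myeloid cells, Csf1r, Cx3cr1, Adgre1, Itgax, Mrc1, Cd68, Lyz2, C1qa, C1qb and C1qc, out of the 54146 genes in a deposited RNA-seq table of mouse colonic mucosa. They were chosen by name, and each name matched a single row of the table. The table covers 9 C57BL/6J mice at 15 wk of age, each as 1 library, divided into 5 of the genotype ApcMin/+ (3 males, 2 females) and 4 of the genotype ApcMin/+; p16cis/cis (1 male, 3 females). All 9 mice carry the heterozygous Min mutation of Apc, which starts intestinal adenomas. The second genotype is also homozygous for p16cis, a knock-in element that draws DNA methylation to the promoter of p16, an inhibitor of the cell cycle. Both alleles are in the germline, so the mucosal macrophages carry them as well as the epithelium. The labels name colonic mucosa as the tissue, and the methods name colonic crypts as the source of the RNA.

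Macrophages of the colon lie beneath the epithelium, where they take up bacteria and dead cells, and blood monocytes renew most of them. Their survival depends on Csf1r, the receptor for the growth factors Csf1 and Il34. Cx3cr1 is the receptor for the chemokine Cx3cl1, Adgre1 encodes the F4/80 antigen, Itgax encodes the CD11c integrin chain shared with dendritic cells, and Mrc1 encodes the mannose receptor CD206. Cd68 encodes a glycoprotein of the late endosome and lysosome, Lyz2 encodes the lysozyme of myeloid cells, and C1qa, C1qb and C1qc encode the chains of C1q, which starts the classical complement pathway.

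In these libraries only Lyz2 fell past the test in ApcMin/+; p16cis/cis mice, by 2.96-fold. Adgre1, too low for the main test, was read in each of the 5 ApcMin/+ mice and in none of the 4 ApcMin/+; p16cis/cis mice. Cd68 had the opposite direction, being higher in 3 of the 4 ApcMin/+; p16cis/cis mice than in any ApcMin/+ mouse, without passing the adjusted threshold. The other members had lower mean levels in ApcMin/+; p16cis/cis mice, with differences that did not pass.

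All of these genes were near the lower end of what the libraries could measure. The 10 genes together took between 113 and 353 reads in a mouse, of 13523500 to 17885918 reads on genes. Values are given as normalized counts, the unit of the deposited table, in which 1 read stood for between 0.951 and 1.595. To compare levels between genes, reads were divided by the length of the longest transcript and by the reads on nuclear genes. On this scale (reads per kilobase and 1e+06 nuclear reads) C1qa had the highest mean of the 10, 2.98 ± 1.69 (SD, n = 9), followed by Lyz2 at 2.65 ± 1.61 and Cd68 at 2.43 ± 1.37. C1qb (0.866 ± 0.539), C1qc (0.639 ± 0.433), Mrc1 (0.306 ± 0.109), Itgax (0.281 ± 0.154) and Csf1r (0.190 ± 0.0962) came next. Cx3cr1 (0.0505 ± 0.0449) and Adgre1 (0.0406 ± 0.0503) were lowest. In this order the step from Cd68 to C1qb and the step from Csf1r to Cx3cr1 were larger than the SD of either gene, and every other pair of neighbors differed by less than the larger SD. Within a genotype the order at the top differed. In ApcMin/+ mice it was Lyz2 (mean 3.78), C1qa (3.61) and Cd68 (1.72), and in ApcMin/+; p16cis/cis mice Cd68 (3.33), C1qa (2.19) and Lyz2 (1.23). With the mean transcript length in place of the longest, Cd68 (3.15) stood above C1qa (2.98) and Itgax (0.739) above C1qc (0.715), while Mrc1 (0.442) and Csf1r (0.436) moved up by more than their SD.

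For comparison, the epithelial genes Krt8 and Epcam reached 1462 ± 228 and 922 ± 169 on the same scale, and the pan-leukocyte gene Ptprc (CD45) 2.88 ± 2.53. The libraries were mostly epithelial, with the macrophage markers far below the epithelial ones. Cd14 (47.3 ± 10.8) and Ctss (184 ± 30.3), genes of macrophages that other cells also express, stood well above all 10 members. In bulk RNA such as this, fewer macrophages and less marker RNA per macrophage cannot be told apart.

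**Figure D1:**
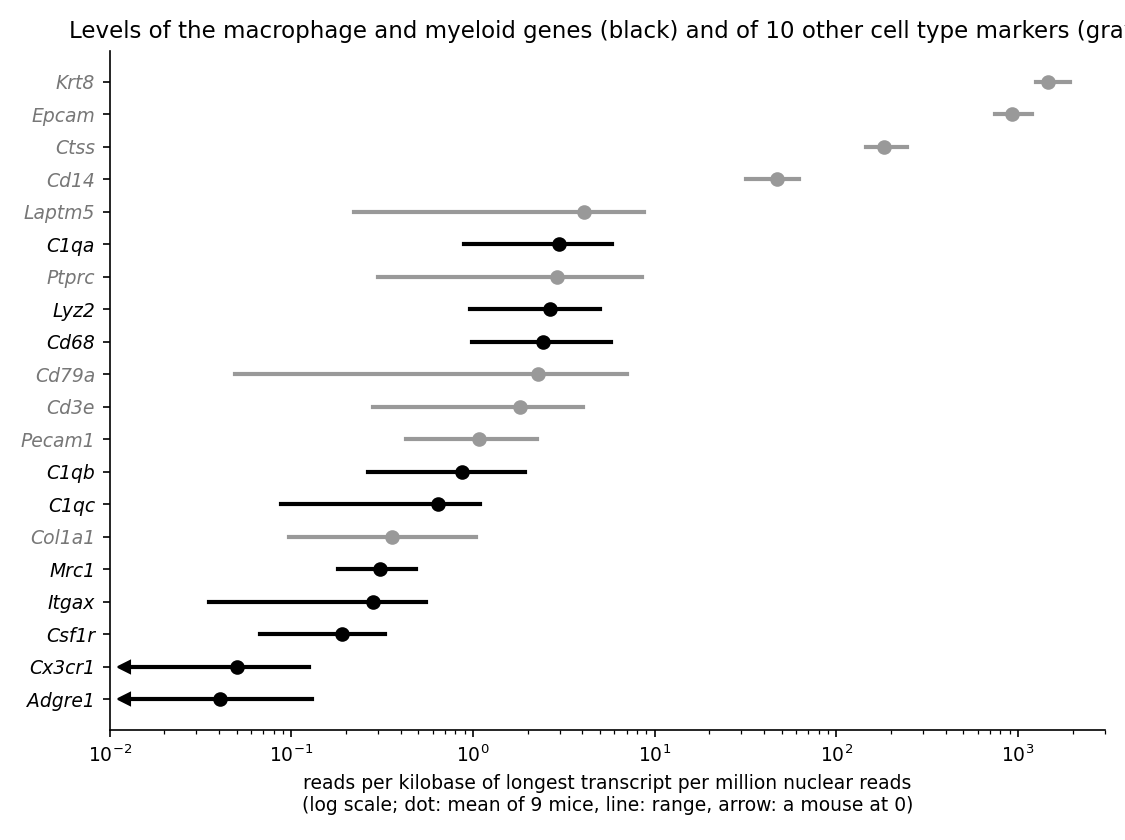
Levels of the 10 macrophage and myeloid genes (black) and of 10 markers of other or broader cell types (gray), in reads per kilobase of the longest transcript and 1e+06 nuclear reads on a log axis. Dots are means of 9 mice, lines run from the lowest to the highest mouse, and arrows mark genes with at least 1 mouse at 0. Every member lies below 6 on this scale, against a mean of 922 for Epcam.

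Library properties that differ between the genotypes bear on all values below. Mitochondrial genes took 8.74% to 15.6% of the reads in ApcMin/+ mice and 19.3% to 29.8% in ApcMin/+; p16cis/cis mice, and the reads on genes, 15745098 to 17885918 against 13523500 to 14900228, did not overlap either. When the mitochondrial share was added to the model, limma called 0 of the 14410 genes tested, and 1 of the 8 members tested had an unadjusted p below 0.05. The effect of genotype and that of the mitochondrial share thus cannot be told apart here. ApcMin/+ replicate 4 had the lowest value of its genotype for 7 of the 10 members. It was also low for markers of several other immune cells, such as the B cell genes Ms4a1 (12.7, against 31.2 to 182 in the other 4 ApcMin/+ mice) and Cd79a (1.27, against 27.9 to 155).

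The genotypes were compared with limma over the 14410 genes that reached a normalized count of 10 in 4 or more mice, on log2(normalized count + 1), a scale that understates differences of low genes. This filter kept 8 of the 10 members and left out Adgre1 and Cx3cr1. Of the 8, 1 (Lyz2) had a Benjamini-Hochberg adjusted p under 0.05 together with a fold change over 2, that is 12.5%, against 3.48% of all genes tested. In the lower direction the background was 1.64%. At any fold change and in either direction 16.9% of all genes tested had an adjusted p under 0.05, against the same single member. Unadjusted p-values were below 0.05 for 4 members, Lyz2, C1qc, Csf1r and Cd68. The share of all genes under that unadjusted threshold was not computed, here or below. It is at least the 16.9% that passed the adjusted threshold. The log2 difference was negative for 7 of the 8 and positive for Cd68, with a median of -0.57 over the 8 beside -0.00414 over all genes tested. The 2 genotypes did not overlap for Lyz2 and Adgre1, both lower in ApcMin/+; p16cis/cis mice. Adgre1 was not among the genes tested, so of the 8 members tested 1 was separate, that is 12.5%. Such a separation in either direction was found for 16.2% of all genes tested, and in the lower direction for 8.95%, so the members' share was near the background.

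**Figure D2:**
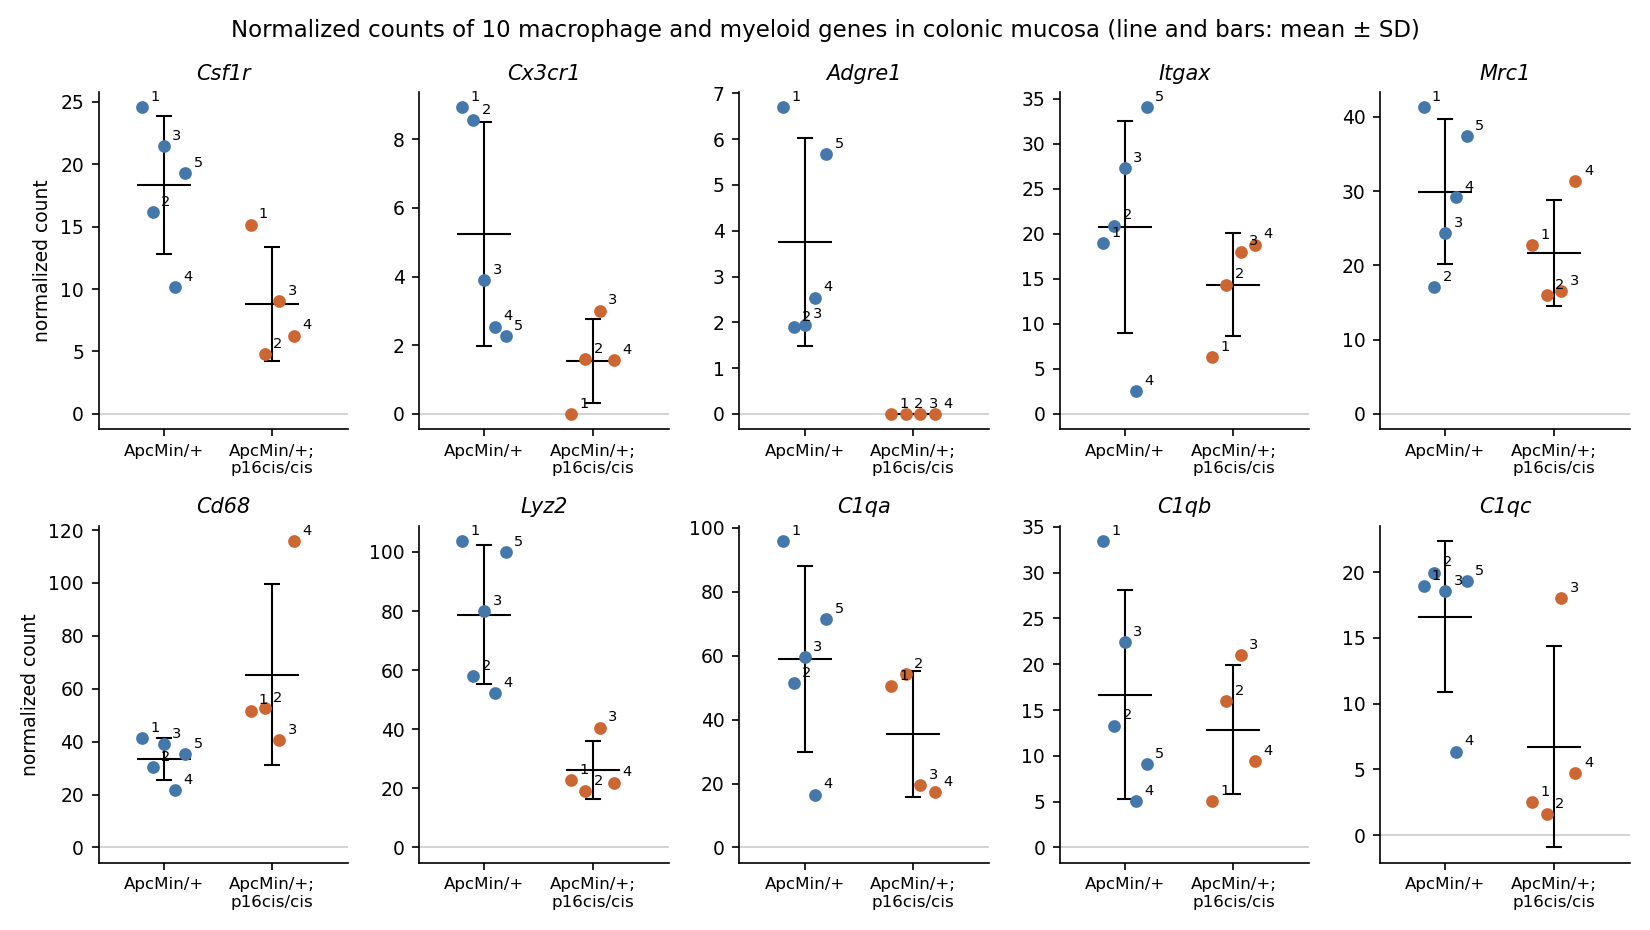
Normalized counts of the 10 genes in each mouse, 5 ApcMin/+ (blue) and 4 ApcMin/+; p16cis/cis (orange), each panel with its own linear axis. Numbers beside the points are replicate numbers, and the line and bars are the mean ± SD of a genotype. The genotypes are separate for Lyz2 and Adgre1, and ApcMin/+ replicate 4 sits at the foot of its group in 7 panels.

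Among the surface receptors, Csf1r (ENSMUSG00000024621.15, GRCm38 chromosome 18 from 61100598 to 61132149, plus strand) had normalized counts of 24.5, 16.2, 21.5, 10.2 and 19.3 in the ApcMin/+ mice and 15.2, 4.79, 9.02 and 6.27 in the ApcMin/+; p16cis/cis mice. In the second genotype 3 of the 4 values lay below every ApcMin/+ value. The overlap lay between ApcMin/+ replicate 4 and ApcMin/+; p16cis/cis replicate 1, and leaving out either mouse separated the genotypes. Mean levels were 18.3 ± 5.49 (SD, n = 5) and 8.81 ± 4.58 (SD, n = 4). The log2 fold change was -1.04 ± 0.42 (SE), with an adjusted p of 0.104 in limma, and the exact two-sided permutation test over all splits of the 9 mice gave p = 0.0317. Without ApcMin/+ replicate 4 the log2 fold change was -1.22 and the adjusted p 0.0452, the only 1 of 20 alternatives under 0.05. Csf1r overlaps Hmgxb3 on the opposite strand, whose normalized count was 557 ± 91.9 and 539 ± 109 in the 2 genotypes (log2 -0.05 ± 0.16, adjusted p = 0.843). Whether the counting used strand is not given in the sources used here, so reads of the shared bases may not be told apart.

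Cx3cr1 (ENSMUSG00000052336.7, chromosome 9 from 119901616 to 120069879, minus strand), which monocytes and gut macrophages carry, was read 25 times in all ApcMin/+ libraries and 4 times in the ApcMin/+; p16cis/cis libraries. Its normalized counts were 8.93, 8.56, 3.90, 2.54 and 2.27 in the former and 0, 1.595, 3.01 and 1.57 in the latter. The ranges overlapped through replicate 3 of the second genotype alone. The difference of mean log2 values was -1.29 (exact permutation test, two-sided, p = 0.0476). Several genes lie over Cx3cr1 in the annotation, among them Wdr48 on the opposite strand at 1145 ± 120 and Gorasp1 on the same strand at 811 ± 57.7 in ApcMin/+ mice, so its few reads are uncertain.

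Adgre1 (ENSMUSG00000004730.14, chromosome 17 from 57358691 to 57483527, plus strand) had 6, 2, 2, 2 and 5 reads in the ApcMin/+ mice, or normalized counts of 6.70, 1.90, 1.95, 2.54 and 5.68. In the 4 ApcMin/+; p16cis/cis mice it was at 0, over 56882248 reads on genes. No mouse of either genotype crossed this line (two-sided exact permutation test, p = 0.00794, the smallest that 5 mice against 4 can give). Taking 3 reads over the whole group as the most that a count of 0 allows, the level observed in ApcMin/+ mice was 3.32-fold above that limit. This figure covers the counting error of the 0 alone. It takes the 17 reads of the ApcMin/+ mice as exact, and a bound with their counting error would be lower. Without the filter on low values limma gave an adjusted p of 0.0124 for it, where 1.86% of the 29946 genes then tested were called, and DESeq2 set no adjusted p for it. With 17 reads in all, the level rests on a few molecules in each ApcMin/+ mouse.

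Itgax (ENSMUSG00000030789.9, chromosome 7 from 128129547 to 128150657, plus strand) ranged more widely in ApcMin/+ mice than between the genotypes. Its normalized counts were 19.0, 20.9, 27.3, 2.54 and 34.1, against 6.31, 14.4, 18.0 and 18.8 in ApcMin/+; p16cis/cis mice. The lowest and the highest mouse were both ApcMin/+. The log2 fold change was -0.27 ± 0.63 (SE, adjusted p = 0.802), and it turned to 0.055 without ApcMin/+; p16cis/cis replicate 1. Mrc1 (ENSMUSG00000026712.3, chromosome 2 from 14229392 to 14332057, plus strand), a receptor of tissue-resident macrophages and some endothelium, had 41.3, 17.1, 24.4, 29.2 and 37.5 in ApcMin/+ mice and 22.7, 15.95, 16.5 and 31.3 in the others. Those ranges overlapped broadly, and the log2 fold change was -0.44 ± 0.34 (SE, adjusted p = 0.402).

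Lyz2 (ENSMUSG00000069516.8, chromosome 10 from 117277331 to 117282321, minus strand) gave the clearest difference. Its normalized counts were 104, 58.0, 80.0, 52.1 and 99.9 in ApcMin/+ mice and 22.7, 19.1, 40.6 and 21.9 in ApcMin/+; p16cis/cis mice. All 4 of the latter lay below all 5 of the former, with replicate 3 of ApcMin/+; p16cis/cis nearest to the gap. The mean fell from 78.8 ± 23.5 (SD, n = 5) to a mean of 26.1 ± 9.77 (SD, n = 4), a log2 fold change of -1.56 ± 0.30 (SE), or 2.96-fold, with an adjusted p of 0.00745 in limma. The adjusted p was 0.00873 with edgeR and 8.36e-05 with DESeq2 on the recovered reads. In females alone (2 against 3) the log2 fold change was -1.94 with an adjusted p of 0.0320, and the single ApcMin/+; p16cis/cis male allowed no such test in males. With the mitochondrial share in the model it was -1.65 with an adjusted p of 0.848.

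**Figure D3:**
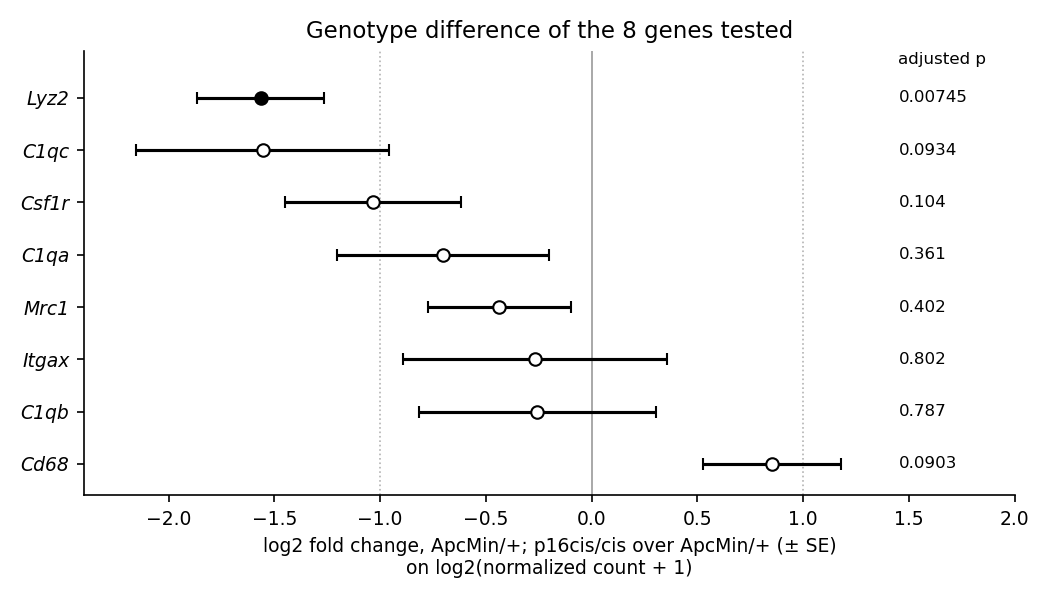
Log2 fold changes of the 8 genes tested by limma, ApcMin/+; p16cis/cis (n = 4) over ApcMin/+ (n = 5), with SE as bars and the Benjamini-Hochberg adjusted p at the right. The filled point (Lyz2, adjusted p 0.00745) passed the threshold and open points did not, and dotted lines mark a fold change of 2.

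Lyz2 has a paralog, Lyz1, 5475 bp away on the same strand, which encodes the lysozyme of Paneth cells. The longest transcripts of the 2 genes are 92.0% identical, and 1.97% of the 100-base windows of Lyz2 and 15.4% of its 50-base windows occur unchanged in Lyz1, so part of their reads could be split between them. Lyz1 had normalized counts of 87.0, 19.97, 13.7, 264 and 31.8 in ApcMin/+ mice and 45.5, 55.8, 107 and 36.0 in ApcMin/+; p16cis/cis mice. Lyz1 was highest in ApcMin/+ replicate 4, where Lyz2 was lowest of its genotype, and its log2 fold change was 0.27 ± 0.72 (SE, adjusted p = 0.828). The sum of both genes, an alternative added after the values were seen, was 162 ± 96.6 (SD, n = 5) and 87.1 ± 40.7 (SD, n = 4) with overlapping ranges (log2 -0.80, exact permutation test, two-sided, p = 0.143). The fall in Lyz2 thus holds for reads assigned to Lyz2, and the total of lysozyme reads did not pass the test. The Paneth cell list, Lyz1 included, had a summed normalized count between 242 and 18538 in ApcMin/+ mice and between 6094 and 46514 in the others. In the highest mouse of each genotype this was mostly Ang4, which ranged from 29.3 to 18151 and from 5747 to 45249. Mmp7 of the same list was at 59.7 ± 41.7 (SD, n = 5) and 62.0 ± 45.5 (SD, n = 4).

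The bases upstream of both lysozyme genes are shown to let their relation be seen, as read from RefSeq (GRCm38.p6) in the direction of transcription. Capitals mark the letters AGGAAG or, on the other strand, CTTCCT, which contain the core bound by factors of the ETS family such as PU.1, the regulator of myeloid genes. Shown are the 201 bases before Lyz2 (chr10:117282322-117282522, minus strand) and the 250 bases before Lyz1 (chr10:117292869-117293118, minus strand).
Lyz2: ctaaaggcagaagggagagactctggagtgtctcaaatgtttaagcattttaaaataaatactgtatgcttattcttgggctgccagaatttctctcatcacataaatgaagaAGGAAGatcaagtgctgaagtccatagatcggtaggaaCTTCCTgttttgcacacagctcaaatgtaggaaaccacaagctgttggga
Lyz1: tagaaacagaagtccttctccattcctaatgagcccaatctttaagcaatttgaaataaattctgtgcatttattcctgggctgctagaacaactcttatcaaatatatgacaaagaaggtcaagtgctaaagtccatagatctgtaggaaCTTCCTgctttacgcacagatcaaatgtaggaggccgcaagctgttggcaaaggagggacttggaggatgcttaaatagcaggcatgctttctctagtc
The match nearest to the start is present in both, and the other match of Lyz2 is not in the Lyz1 window. Upstream bases of 7 members were found in the RefSeq table, and AGGAAG occurred on either strand in 4 of the 7, as did the overlapping letters GAGGAA (with TTCCTC), beside 29.5% and 23.3% of 32851 windows of 250 bases. Some member windows were shorter than 250 bases, and these matches are letters in a window, not measured binding.

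Cd68 (ENSMUSG00000018774.13, chromosome 11 from 69664213 to 69666153, minus strand) was the 1 member with a higher mean in ApcMin/+; p16cis/cis mice. Its normalized counts were 41.3, 30.4, 39.0, 21.6 and 35.2 in ApcMin/+ mice and 51.8, 52.6, 40.6 and 116 in ApcMin/+; p16cis/cis mice. Of the latter, 3 were above every ApcMin/+ mouse, replicate 3 fell inside the ApcMin/+ range, and replicate 4 stood far above all others. Means were 33.5 ± 7.82 (SD, n = 5) and 65.2 ± 34.2 (SD, n = 4), and the log2 fold change was 0.85 ± 0.33 (SE, adjusted p = 0.0903). The exact two-sided permutation test gave p = 0.0159. By DESeq2 the log2 fold change was 0.96 with an adjusted p of 0.0405, and without ApcMin/+; p16cis/cis replicate 4 limma gave 0.54 with an adjusted p of 0.255.

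The gene next to Cd68, Eif4a1, which encodes a translation initiation factor of all cells, ends 782 bp upstream of it on the same strand. It had 1478 ± 78.4 normalized counts (SD, n = 5) in ApcMin/+ mice against 2016 ± 222 (SD, n = 4) in the second genotype, without overlap, and it rose by 0.44 ± 0.10 on the log2 scale (SE, adjusted p = 0.0134). Its part in the Cd68 value was not tested. The 250 bases just before Cd68 (chr11:69666171-69666420, minus strand, RefSeq, GRCm38.p6) lie in the gap between the genes and are shown with the letters GAGGAA in capitals.
Cd68: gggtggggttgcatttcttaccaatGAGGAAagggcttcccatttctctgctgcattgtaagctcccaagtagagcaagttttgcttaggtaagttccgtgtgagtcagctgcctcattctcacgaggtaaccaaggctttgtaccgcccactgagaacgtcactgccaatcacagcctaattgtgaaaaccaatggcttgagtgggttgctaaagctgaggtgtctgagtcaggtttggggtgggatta

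Set against Lyz2 in the same mouse, a comparison chosen after the values were seen and given without a test, Cd68 had between 0.352 and 0.525 times the Lyz2 count in ApcMin/+ mice. In ApcMin/+; p16cis/cis mice the ratio was 2.28, 2.75, 1 and 5.29. Of these 2 genes of the phagocyte lysosome, Lyz2 was the higher in all 5 ApcMin/+ mice and in none of the 4 ApcMin/+; p16cis/cis mice, with equal reads in replicate 3.

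**Figure D4:**
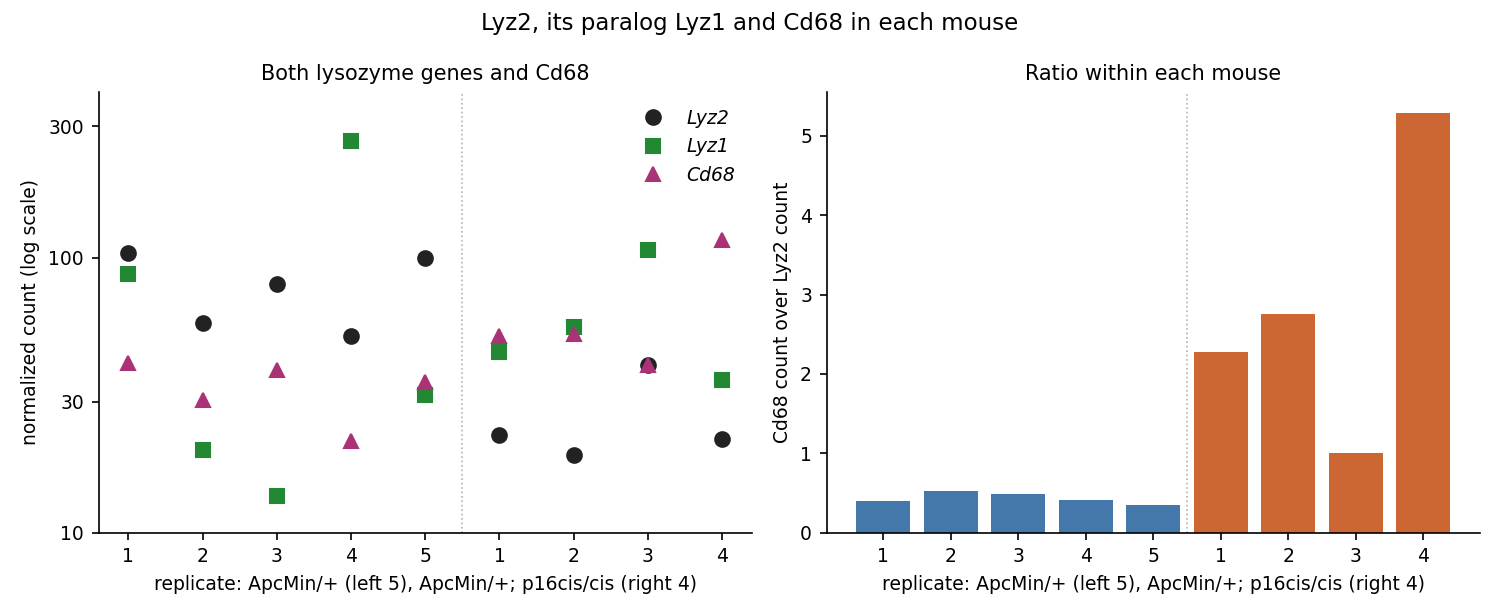
Left, normalized counts (log axis) of Lyz2, its paralog Lyz1 and Cd68 in each of the 9 mice. Right, the ratio of the Cd68 to the Lyz2 count in each mouse, at most 0.525 in ApcMin/+ mice (blue) and at least 1 in ApcMin/+; p16cis/cis mice (orange).

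The C1q genes lie in a row on the minus strand of chromosome 4, C1qb (ENSMUSG00000036905.8, 136880129 to 136886187), C1qc (ENSMUSG00000036896.5, 136889804 to 136893065) and C1qa (ENSMUSG00000036887.5, 136895917 to 136898803), within 18675 bp. The same chromosome holds Cdkn2a, the gene of p16, at a distance of 47.6 Mb. C1qa had normalized counts of 96.0, 51.3, 59.5, 16.5 and 71.5 in ApcMin/+ mice and 50.5, 54.2, 19.5 and 17.2 in ApcMin/+; p16cis/cis mice. The lowest mouse was ApcMin/+ replicate 4, and 2 mice of ApcMin/+; p16cis/cis lay near the 51.3 of ApcMin/+ replicate 2. The ranges overlapped, also without replicate 4, and the log2 fold change was -0.70 ± 0.50 (SE, adjusted p = 0.361).

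C1qb was at 33.5, 13.3, 22.4, 5.08 and 9.08 in ApcMin/+ mice and at 5.05, 15.95, 21.0 and 9.40 in the second genotype. Its log2 fold change was -0.26 ± 0.56 (SE, adjusted p = 0.787), and the sign depended on single mice, being 0.048 without ApcMin/+ replicate 1 and 0.087 without ApcMin/+; p16cis/cis replicate 1. C1qc was at 19.0, 19.97, 18.5, 6.36 and 19.3 in ApcMin/+ mice and at 2.53, 1.595, 18.0 and 4.70 in ApcMin/+; p16cis/cis mice. In ApcMin/+ mice 4 values were between 18.5 and 19.97, and in each genotype 1 mouse stood where the other genotype lay. The log2 fold change of C1qc was -1.56 ± 0.60 (SE, adjusted p = 0.0934). It passed the threshold without ApcMin/+ replicate 4 (-1.85, adjusted p = 0.0349) and without ApcMin/+; p16cis/cis replicate 3 (-2.14, adjusted p = 0.0216), and DESeq2 gave an adjusted p of 0.157.

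C1q is assembled from its chains A, B and C in equal numbers, and the share of each gene among the C1q reads of a mouse was therefore compared. C1qa held 59.1% to 71.6% of the C1q reads in ApcMin/+ mice. In ApcMin/+; p16cis/cis mice its share was 87.0% (95% exact binomial interval 73.7% to 95.1%, 40 of 46 reads), 75.6% (60.5% to 87.1%, 34 of 45), 33.3% (19.1% to 50.2%, 13 of 39) and 55.0% (31.5% to 76.9%, 11 of 20). The intervals cover counting error only, and that of replicate 3 lay apart from those of replicates 1 and 2, so the makeup of the C1q reads varied more among these 4 mice than among the 5 ApcMin/+ mice, a contrast that was not tested.

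C1qc took 12.8% to 23.6% of the C1q reads in ApcMin/+ mice and 4.35%, 2.22%, 30.8% and 15.0% in ApcMin/+; p16cis/cis mice. Differences between the genotypes were tested on 3 log2 ratios with Benjamini-Hochberg adjustment over the 3. In exact two-sided permutation tests the ratio C1qc/C1qb differed by -1.30 (p = 0.0556, adjusted p = 0.167), C1qa/C1qb by -0.45 (p = 0.516, adjusted p = 0.516) and C1qa/C1qc by 0.85 (p = 0.341, adjusted p = 0.512). None of the ratios passed the threshold, and C1qa/C1qb changed sign without ApcMin/+; p16cis/cis replicate 3.

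**Figure D5:**
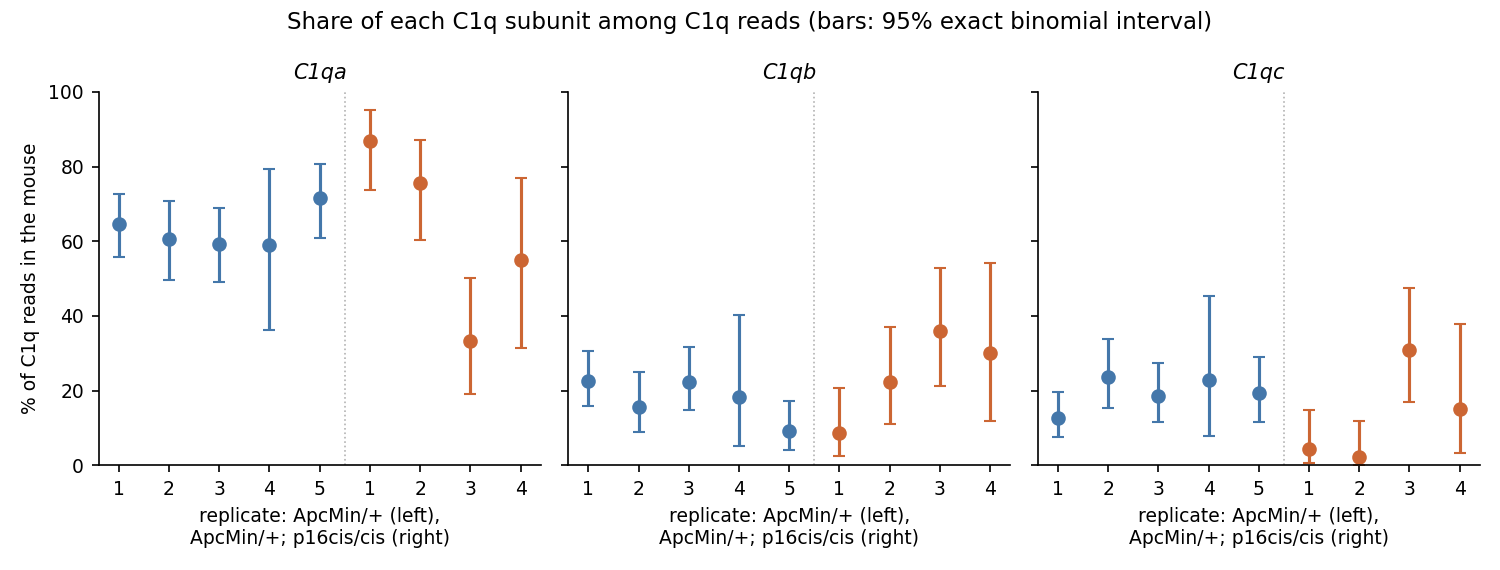
Percent of the C1q reads of each mouse assigned to C1qa, C1qb and C1qc, with 95% exact binomial intervals that cover counting error only, for 5 ApcMin/+ (blue) and 4 ApcMin/+; p16cis/cis (orange) mice. C1qa holds 59.1% to 71.6% in ApcMin/+ mice and 33.3% to 87.0% in ApcMin/+; p16cis/cis mice.

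Over the 9 mice, with each genotype's mean removed, 25 of the 28 pairs among the 8 tested members varied in the same direction (Pearson r above 0), with a median r of 0.276 and a range from -0.14 to 0.80. Without ApcMin/+ replicate 4 it was 15 of the 28 pairs with a median r of 0.065, close to the 50.1% of all pairs of tested genes. The shared variation of the members thus rested on that mouse. These correlations describe 9 libraries that differ in depth and in markers of several cell types. How far such differences shaped the correlations was not tested. The genes named next were picked as the highest r among 14410 genes over 9 mice, so their r is raised by the selection itself. The genes most like a member among all those tested were Dnaaf2 (r = 0.986), Atp10b (0.945) and Tmem174 (0.917) for Lyz2. For Itgax they were Ifi203 (0.989), Fam105a (0.988) and Ms4a4b (0.986), and Itgax had an r of 0.920 with Ptprc. By rank the correlation of Itgax with Ptprc was weaker (Spearman rho 0.617), and both genes had their lowest value in ApcMin/+ replicate 4. Csf1r was most like Napepld (0.960), Arap2 (0.956) and Grb10 (0.945), and Mrc1 most like Tnfsf12 (0.949). The closest to Cd68 with a gene name was Hk2 (0.928), and those to C1qa, C1qb and C1qc were Cebpz (0.977), Arhgef18 (0.979) and Pa2g4 (0.971). No gene appeared among the 3 most alike of more than 1 member.

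A list of 30 other macrophage genes was examined beside the members. Of its 15 genes tested, 3 had an adjusted p under 0.05, and all 3 were lower in ApcMin/+; p16cis/cis mice. Beside this stand 16.9% of all genes tested in either direction. The share in the lower direction alone was not computed at any fold change, here or for the lists below. The count was 1 to 4 with any 1 mouse left out, 1 in females alone and 0 with the mitochondrial share in the model. Maf, a transcription factor of resident macrophages and of some lymphocytes, fell from 204 ± 18.9 (SD, n = 5) to a mean of 79.9 ± 26.4 (SD, n = 4), a log2 fold change of -1.40 ± 0.22 (SE, adjusted p = 0.00339). Its lowest ApcMin/+ value was 176 and its highest ApcMin/+; p16cis/cis value 104. Lyve1, a hyaluronan receptor of some resident macrophages and of lymphatic endothelium, fell by 0.88 on the log2 scale (adjusted p = 0.0247), also without overlap. Spi1, the gene of PU.1, was at 15.9 ± 7.76 and 4.195 ± 5.38 (log2 -2.14 ± 0.71, adjusted p = 0.0596), a gene named outside the rule because its motif is shown above.

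Over the 15 tested, 12 differences were negative and 3 positive, with a median log2 of -0.35. The summed normalized count of the list, in which Ctss was the most abundant gene, was 9549 to 11706 in ApcMin/+ mice and 8395 to 9722 in ApcMin/+; p16cis/cis mice. Cd163, Timd4, Siglec1 and Vsig4, which mark resident macrophages, were at 0 in all 4 ApcMin/+; p16cis/cis mice, and Cd163 at a mean of 0.640 normalized counts in ApcMin/+ mice. At such levels a difference was not detectable.

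Among 11 genes for ligands of the member receptors and myeloid growth factors, 4 were tested, and limma gave 0 with an adjusted p under 0.05, 2 with an unadjusted p under 0.05, and edgeR and DESeq2 1 each, Csf1. The shares of all genes under the adjusted threshold were 16.9% by limma, 17.1% by edgeR and 10.9% by DESeq2. Csf1, a ligand of Csf1r named for that reason outside the rule, was at 28.2 ± 13.4 (SD, n = 5) in ApcMin/+ mice against 70.5 ± 38.1 (SD, n = 4) in the second genotype (log2 1.24 ± 0.41, adjusted p = 0.0563 in limma). Its direction was thus opposite to that of its receptor, neither passing limma's adjusted threshold. Il34, the other ligand, was at 116 ± 42.0 and 148 ± 54.9 (adjusted p = 0.503). Cx3cl1, the ligand of Cx3cr1, was at 2572 ± 421 and 2811 ± 464 (adjusted p = 0.584).

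In the complement list outside C1q, 14 of 22 genes were tested, with 1 higher and 1 lower past the adjusted threshold, both over 2-fold. Of all genes tested, 3.48% passed both limits. Cfp (properdin, which stabilizes the alternative pathway's convertase) rose from 55.3 ± 12.4 (SD, n = 5) to 114 ± 32.8 (SD, n = 4), a log2 fold change of 1.02 ± 0.24 (SE, adjusted p = 0.0162) without overlap. Cr2, a complement receptor of B cells and follicular dendritic cells, fell by 3.42 on the log2 scale (adjusted p = 0.0308), and ApcMin/+ replicate 4 at 2.54 was inside the range of the ApcMin/+; p16cis/cis mice, 0 to 9.02. C3, the central component, was at 456 ± 366 and 286 ± 95.2 (adjusted p = 0.794).

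Markers of other cells were counted in the same fit. Lists of which 1 to 3 genes passed, all lower in ApcMin/+; p16cis/cis mice, were B cells (1 of 9 tested, Cr2), plasma cells (2 of 6, Jchain and Prdm1), fibroblasts and matrix (1 of 7, Col3a1), smooth muscle (1 of 6, Mylk) and lysosome genes used by most cells (3 of 16, Psap, Lamp1 and Lamp2), beside the same 16.9% in either direction. With 1 mouse left out the counts ran from 0 to 6 for B cells, 2 to 4 for plasma cells, 0 to 3 for fibroblasts and matrix, 1 to 3 for smooth muscle and 0 to 5 for lysosome genes. Summed normalized counts were 20.3 to 1090 against 23.5 to 293 for B cells, 3832 to 5313 against 3056 to 4104 for plasma cells, 395.3 to 946 against 279 to 496 for fibroblasts and matrix, and 1151 to 1658 against 576 to 951 for smooth muscle. Their log2 fold changes were -2.65 for Jchain, -1.36 for Prdm1, -2.92 for Col3a1, -0.87 for Mylk, -0.55 for Psap, -0.52 for Lamp1 and -0.39 for Lamp2. The smooth muscle sums did not overlap between the genotypes, and most of each sum was Mylk, at 1294 ± 201 (SD, n = 5) against 714 ± 155 in the second genotype. Mylk was the only tested gene of that list without overlap. In ApcMin/+ mice Acta2 (31.6 ± 29.4) and Myh11 (44.4 ± 39.7) stood far below it. The sums thus follow Mylk and do not measure smooth muscle. Most of the plasma cell sum was Sdc1, which epithelium also expresses, at 4170 ± 666 (SD, n = 5) against 3377 ± 438 (SD, n = 4). In the same lists, ApcMin/+ replicate 4 held the lowest B cell sum. Lum of the fibroblast list, Lmod1 of the smooth muscle list and Tnfrsf17 of the plasma cell list were at 0 in all ApcMin/+; p16cis/cis mice. Of the endothelial list, Cdh5, a junction gene of endothelium, was read in all 5 ApcMin/+ mice (1.27 to 23.8 normalized counts), and Kdr, a receptor for VEGF, was at a mean of 11.96 there, while both were at 0 in all 4 ApcMin/+; p16cis/cis mice. These genes were too low for the filter and were named after their values were seen. The part of these cells in the members' differences was not tested.

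In the other 11 lists, the ligands included, limma gave 0 of 58 tested genes an adjusted p under 0.05, and 14 had an unadjusted p under 0.05. Of the same 58, edgeR called 3, beside 17.1% of all genes tested. DESeq2 called 10 of them, beside 10.9% of the genes to which it gave a p-value. It called 4 more that were below the filter, Cdh5, Kdr, Tie1 and Cd28. Without ApcMin/+ replicate 4, limma gave 17 genes in 8 of these lists an adjusted p under 0.05, beside 24.2% of all genes tested. Of these, 6 of 8 were in the list of all leukocytes, 4 of 10 in T cells and 2 of 4 in dendritic cells, all lower in ApcMin/+; p16cis/cis mice, with 1 lower in each of monocytes, mast cells and eosinophils and endothelium and 1 higher in each of colonic epithelium and Paneth cells. The median log2 difference was 0.012 for monocytes (5 tested, for example Plac8), 0.28 for neutrophils (1 tested, Ly6g), -1.31 for dendritic cells (4 tested, for example Irf8), -0.27 for all leukocytes (8 tested, for example Ptpn6) and -0.20 for T cells (10 tested, for example Lck). It was 0.45 for mast cells and eosinophils (5), -0.24 for endothelium (2 tested, Pecam1 at -0.92 and Vwf at 0.43), 0.55 for enteric neurons and glia (3), -0.04 for colonic epithelium (12) and 0.86 for Paneth cells (4). Ptprc, found on all leukocytes, was between 30.5 and 750 normalized counts in ApcMin/+ mice, with replicate 4 the lowest, and between 99.8 and 168 in the others. Summed counts of the epithelial list were 457805 to 787268 and 470915 to 548677, and those of all leukocytes 1210 to 3628 and 1436 to 2017. Clec9a, Elane and Fcnb, 1 gene each of the dendritic cell, neutrophil and monocyte lists, were at 0 in all 9 mice. Other genes of these lists were read at low levels, such as Flt3 (4.91 ± 3.33, SD, n = 5, against 0.767 ± 0.886, SD, n = 4), S100a9 (10.3 ± 7.95 against 10.1 ± 17.3) and Ccr2 (8.98 ± 4.94 against 1.505 ± 1.31). In both genotypes Plac8, Ace and Ly6g, tested genes of the monocyte and neutrophil lists, stood far above these low genes. Their values in ApcMin/+ mice were 7550 ± 1607, 710 ± 91.7 and 669 ± 245. In the second genotype they were 7198 ± 2177, 723 ± 138 and 930 ± 602. Whether their reads came from those cells was not tested, so the monocyte and neutrophil medians are no measure of such cells.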

How the data were processed

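The colonic mucosa of 9 mice was profiled by RNA-seq, with genotypes from the labels. Per the study's methods, libraries enriched by rRNA depletion and oligo dT selection were read on the BGISEQ-500 platform, reads were aligned with BOWTIE2, gene levels came from RSEM and were compared by DESeq2, while tool versions, genome build and annotation of this step are not given in the sources used here. The authors deposited 1 table of signal values, that is, DESeq2 normalized counts per gene and mouse. Positive values were whole multiples of the smallest in their column (100% of values, within 0.01 reads), so reads were recovered from it. Reads on genes per mouse numbered 13523500 to 17885918, and 3 reads of a library were taken as the limit of a count of 0. Of the identifiers, 54079 were in GENCODE M21 (GRCm38) without regard to version, and upstream sequences came from RefSeq (GRCm38.p6).

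A count test had been planned for raw counts, and because the values are normalized, the main test was limma 3.58.1 (R 4.3.3) with a variance trend, fitted to log2(normalized count + 1) for the 14410 genes that reached 10 in 4 or more mice. Genotype was the sole term, and Benjamini-Hochberg adjustment covered all genes tested. For single values an exact permutation test ran over all splits of the mice, with a smallest p of 0.00794. Alternatives were DESeq2 1.42.0 and edgeR 4.0.16 (on recovered reads), other scalings, filters and pseudocounts, sex or mitochondrial share as covariates, females only, the replicate block and each mouse left out. The procedure was tested on simulated data.

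Members and gene lists were chosen with earlier results of these data known. Named are all 10 members, in each list up to 4 genes with the largest change among those with an adjusted p under 0.05 or otherwise the 2 with the highest level (not all are described, and some list genes are not reported here), and the 3 genes most like a tested member. Any gene named outside this rule was chosen after its values were seen. The labels number the mice within each genotype, but the same number names different mice. Deviations of same-numbered mice from their group means correlated at -0.18, 0.07, 0.05 and 0.14, and the numbers were not taken to pair the mice. The labels do not name litters or cages, so whether these follow genotype is not known. The p-values take the mice as independent and measure the spread between them. Flow cytometry, qRT-PCR and single-cell data were not analyzed here.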

Additional observations from a re-analysis of the deposited data

Results flagged for a closer look

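In a group of 4 or 5 mice, a value was marked where its gap to the nearest other mouse, divided by the group's range, passed Dixon's 95% critical value. This was checked in 26 groups and held in 3, where chance gives about 1 in 20 groups (1.3 here). Cd68 was at 116 normalized counts in ApcMin/+; p16cis/cis replicate 4, with the next mouse at 52.6 and the lowest at 40.6. Lyz2 was at 40.6 in ApcMin/+; p16cis/cis replicate 3, with the next mouse at 22.7 and the lowest at 19.1, and this mouse still lay below every ApcMin/+ mouse. C1qc was at 6.36 in ApcMin/+ replicate 4, with the next mouse at 18.5 and the highest at 19.97.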

How the results depend on the processing

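The log2 fold change of Lyz2 kept its direction under all 21 alternatives run and its adjusted p under 0.05 in 20 of them, the exception being the mitochondrial share as a covariate (adjusted p = 0.848). It ranged from -1.94 to -1.44, and with single mice left out from -1.79 to -1.44 (adjusted p 0.00266 to 0.0277). Members with an adjusted p under 0.05 and a fold change over 2 numbered 1 in the main test, 2 with no filter on low values (Lyz2 and Adgre1), 0 with the mitochondrial share (1 at an unadjusted p under 0.05), and 1 to 3 with single mice left out. The 3 were Lyz2, C1qc and Csf1r without ApcMin/+ replicate 4, where 5.24% of all genes tested were called, and the 2 without ApcMin/+; p16cis/cis replicate 3 were Lyz2 and C1qc, at 3.63% of all genes. At any fold change the number was 2 with DESeq2 (Lyz2 and Cd68), beside 10.9% of the genes to which it gave a p-value. It was 2 with no filter, beside 6.41% of all genes tested, and 0 with the mitochondrial share, beside 0%. With single mice left out it was 1 to 3, beside 8.21% to 24.2% of all genes tested.

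Members with an exact permutation p under 0.05 numbered 5 with all mice (Csf1r, Cx3cr1, Adgre1, Cd68 and Lyz2), 2 to 5 with single mice left out and 0 in females only, where 0.1 is the smallest p that can be had. The share of all genes at this permutation threshold was not computed, so these counts have no background beside them. The smallest p is 0.0286 without an ApcMin/+ mouse and 0.0179 without an ApcMin/+; p16cis/cis mouse. Members whose genotypes did not overlap numbered 2 with all mice and 2 to 5 with single mice left out, reaching 5 without ApcMin/+ replicate 4 and 5 without ApcMin/+; p16cis/cis replicate 3, where 26.2% and 22.6% of all genes tested did not overlap. In females only they numbered 7, where 44.2% of all genes tested did not overlap. Each of these counts includes Adgre1, which was not among the genes tested. The count without ApcMin/+; p16cis/cis replicate 3 also includes Cx3cr1, which was not tested either. The counts are thus over all members and the shares over the genes tested, so the 2 are not directly comparable.

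With single mice left out, the sign changed for Itgax without ApcMin/+; p16cis/cis replicate 1 (range -0.84 to 0.055), for C1qb without ApcMin/+ replicate 1 (0.048) and without ApcMin/+; p16cis/cis replicate 1 (range -0.58 to 0.087), and for the C1qa/C1qb ratio without ApcMin/+; p16cis/cis replicate 3 (range -1.02 to 0.047), and no other sign of a member changed. Cd68 ranged from 0.46 to 1.04 and was past the adjusted threshold in 1 of 21 alternatives, DESeq2. With the replicate block the log2 fold change of Lyz2 was -1.47 (adjusted p = 0.0175) and the number of members called was 1, as without the block. Of 378 counts over the gene lists under the alternatives, 282 stayed within 1.5 times the main count and 96 did not.

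Depth limits these genes, since Adgre1 had 17 reads in all mice, Cx3cr1 29, C1qc 97, Csf1r 111 and C1qb 113.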
